A study of Mus musculus with 12 samples.

Results

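Mutations in a small set of genes for proteins of the spliceosome cause retinitis pigmentosa in people, and 9 of these genes, Prpf3, Prpf4, Prpf6, Prpf8, Prpf31, Snrnp200, Rp9, Dhx38 and Cwc27, were followed here across 3 mouse models of retinal degeneration that carry mutations elsewhere. They were taken by gene name from a table of 32867 genes, and all 9 were found and passed the filter on low counts in every comparison. RNA of whole retina was sequenced in 12 samples, 3 in each of 4 groups. The Pde6b rd1 and Pde6b rd10 mice carry different mutations in the rod phosphodiesterase gene Pde6b and were taken at postnatal days 13 and 23, the Prph rd2 mice carry a mutation in the gene of the photoreceptor disc protein peripherin and were taken at day 29, and the C3H mice carry wild-type alleles of both genes. The labels place all groups at the peak of photoreceptor death of the models, and the 3 C3H samples were 1 each of days 13, 23 and 29, so that age varied within C3H and not within a model. By the study's methods the Pde6b rd10 colony was C57Bl6/J and the other colonies were C3H, whereas the labels name C57BL6/J for Prph rd2. Age and genotype cannot be told apart in these comparisons. Strain cannot be told apart from them for Pde6b rd10 nor, if the labels hold, for Prph rd2. By the methods, Pde6b rd1 and the wild type shared a strain. Nothing in the labels says that samples of a group came from separate animals, though the study calls them biological replicates. The p-values measure only the spread between these samples. Within C3H this spread takes in age, and within a model it may be technical.

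The spliceosome removes introns from pre-mRNA and is assembled anew on each intron from small nuclear ribonucleoproteins, the U1, U2, U4, U5 and U6 snRNPs. U4, U5 and U6 arrive together as the tri-snRNP, and most of the genes described here code for its proteins. They are expressed in all tissues, yet dominant mutations in several of them are known above all for the loss of rod photoreceptors, cells with a very high output of spliced RNA.

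The sequences shown are the upstream region of Prpf6, the member whose rise in Pde6b rd1 passed in all settings tried, and the junction of the circular RNA with the most reads among the members. The upstream window of a gene is the 250 bases before its RefSeq start site (GRCm38.p6), at chr2:181601069-181601318 on the plus strand for Prpf6 and at chr13:104816954-104817203 on the minus strand for Cwc27, the other member that rose. GENCODE vM21 has transcripts of both genes that start further upstream, so that the Prpf6 window lies within the bounds of its gene and the Cwc27 window overlaps the start of its own. Capitals mark GGGCGG or its reverse complement.
Prpf6 upstream: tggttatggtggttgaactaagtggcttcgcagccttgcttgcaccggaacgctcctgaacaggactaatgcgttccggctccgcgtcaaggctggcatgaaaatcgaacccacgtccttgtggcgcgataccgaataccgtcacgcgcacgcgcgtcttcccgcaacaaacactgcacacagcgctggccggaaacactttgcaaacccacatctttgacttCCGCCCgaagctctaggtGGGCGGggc
Both strands were searched for 4 motifs, none of which overlapped another in the Prpf6 window, the ETS factor core CCGGAAG, the SP1 core GGGCGG, the TATA box as TATAAA, and TAATCC, the core known for the photoreceptor factor CRX. The SP1 core stood 2 times in the Prpf6 window and in 32.7% of 32851 upstream windows of the same length, and the TATA box stood 1 time in the Cwc27 window and in 12.4% of all windows. RefSeq windows were found for 7 of the 9 genes, 8 windows in all, as Prpf3 had 2 that overlap each other. The ETS core was in 2 of the 8, that of Snrnp200 and 1 of Prpf3, against 6.91% of all windows. The CRX core was in 1 of the 8, that of Prpf8, against 6.25% of all windows. The SP1 core was in 2 of the 8, against 32.7%, and the TATA box in 1 of the 8, against 12.4%. The windows of the members held a median of 20 CG pairs, against 6 over all windows.

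In the Snrnp200 circle, the end of exon 43 is joined back to the start of exon 39 of a transcript with 45 exons (chr2:127237461-127238820, GRCm38, plus strand). The first 30 bases, in lower case, end exon 43, and the 30 in capitals begin exon 39.
Snrnp200 junction: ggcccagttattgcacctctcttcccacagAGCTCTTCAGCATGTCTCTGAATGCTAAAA

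Of the 9 genes, all protein-coding, Prpf6 (chr2:181591868-181655660) and Snrnp200 (chr2:127208386-127240451) lie on chromosome 2 of GRCm38, Prpf8 at chr11:75486816-75509449, Prpf31 at chr7:3629985-3642486, Prpf4 at chr4:62408797-62426990 and Cwc27 at chr13:104631140-104817142. Prpf3 lies at chr3:95830124-95855885, Dhx38 at chr8:109548011-109565861 and Rp9 at chr9:22411047-22469743.

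Before the results, 2 facts about the samples bear on each comparison. The reads on genes numbered 17049495 to 24755890 in a sample, and a count of 3, taken as the floor, was worth 0.121 to 0.176 CPM, the count divided by the reads on genes and scaled to a common library size, far below the 215 to 14176 counts of the members. The floor covers counting error only, while the intervals of fold changes also take in the spread between samples. Xist, the RNA of the inactive X chromosome of females, lay between 0.386 and 0.517 CPM in C3H, between 715 and 802 in Pde6b rd10, between 1558 and 1980 in Prph rd2 and between 3657 and 3890 in Pde6b rd1, and the Y-linked gene Ddx3y was at 0 counts in all Pde6b rd1 samples and at 77.8 to 86.8 CPM in C3H. The study used mice of either sex, and the levels of these genes did not overlap between any groups, so that sex and genotype cannot be told apart either. The summed CPM of 8 rod markers was 25629 to 26493 in C3H, 21744 to 22697 in Pde6b rd10, 16548 to 17695 in Prph rd2 and 12485 to 12564 in Pde6b rd1, and none of these markers was at 0 in a group. In whole retina, fewer cells of a type and less RNA per cell cannot be told apart. The sum of 8 microglia markers was 146 to 157 CPM in Pde6b rd10, against 46.7 to 56.7 in the other groups, and that of 6 Müller glia markers was 1783 to 1835 CPM in Pde6b rd1, against 2927 to 3691 in the others. Single markers did not all follow the sums. By the adjusted test described below, 5 of the 6 Müller glia markers were lower in Pde6b rd1 than in C3H. Slc1a3 was not, at 426 to 448 CPM against 442 to 444. In Pde6b rd10, 7 of the 8 microglia markers were higher than in C3H. P2ry12, at 5.33 to 7.13 CPM against 7.73 to 8.28, was lower. Of the 8 rod markers, 7 were lower in Pde6b rd1 than in C3H and 1, Nr2e3, was higher. The part of sex and of cell makeup in the values of the members was not tested.

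Levels between genes were compared in FPKM, the deposited values, which divide the reads of a gene by its length and by the reads on all genes. Prpf8 and Snrnp200, which code for the scaffold at the heart of the spliceosome and for the helicase that opens the U4 and U6 RNA duplex, stood far above the rest. Prpf8 had 73.3 to 80.9 FPKM over the 12 samples, with a mean higher than that of 98.6% of the tested genes. Snrnp200 had 36.1 to 40.8 FPKM. Prpf6, whose protein bridges U5 to U4/U6, followed at 14.8 to 18.6 FPKM, and Dhx38, a helicase that remodels the spliceosome after the first catalytic step, at 7.57 to 9.36. The 3 proteins of the U4/U6 particle were lower, with Prpf31 at 5.15 to 7.24, Prpf4 at 5.23 to 5.91 and Prpf3 at 3.60 to 4.74 FPKM. Cwc27, a cyclophilin of the activated spliceosome, had 3.47 to 5.67 FPKM and Rp9, a less well known splicing-associated protein, 3.35 to 4.35, so that these and Prpf3 overlapped. The 9 genes together took 0.108 to 0.113% of the reads in every sample.

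**Figure D1:**
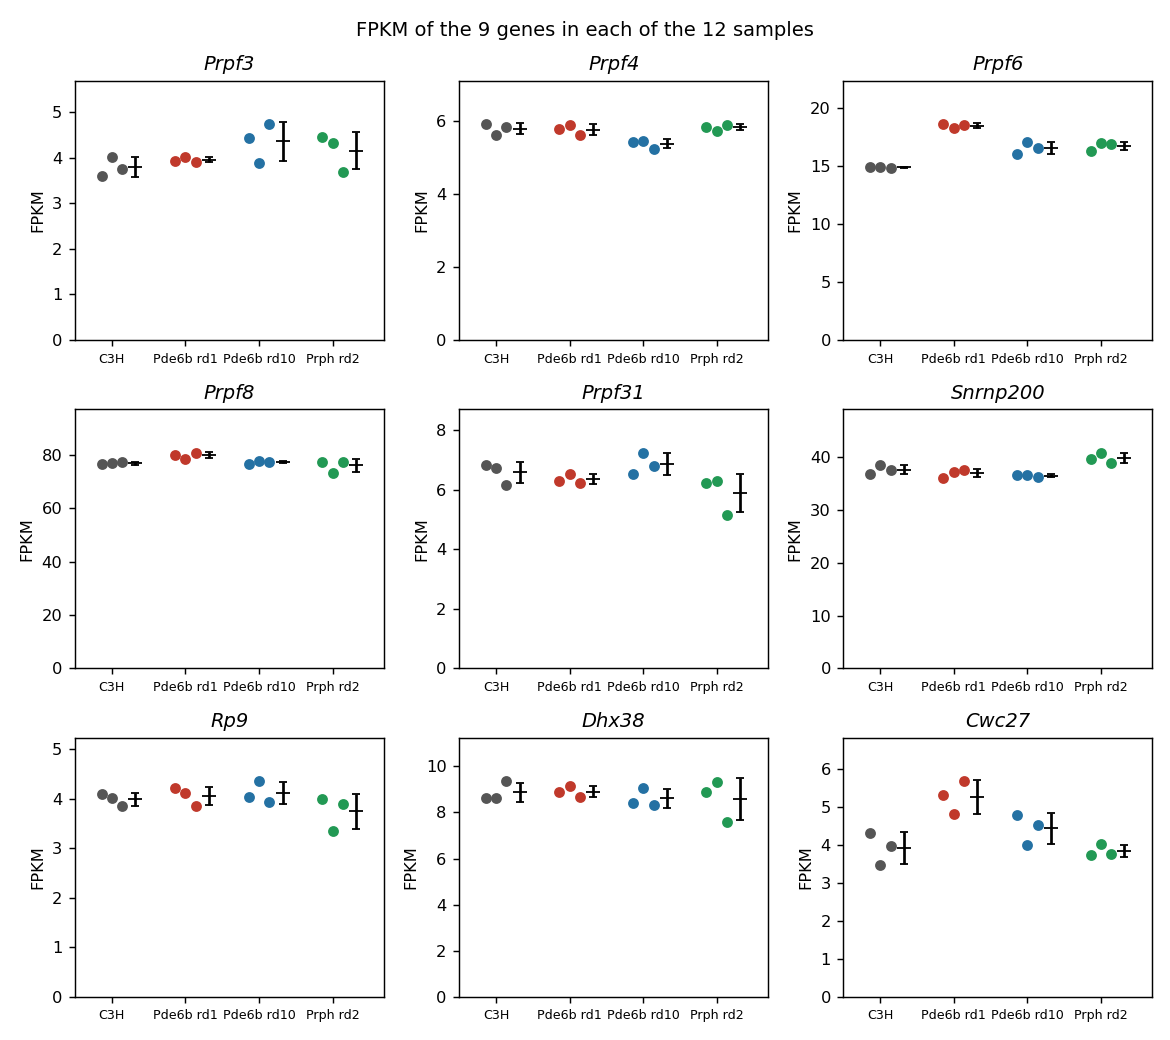
FPKM (vertical axes, each from 0) of the 9 genes in each of the 12 samples, grouped by genotype (horizontal axes), with the mean and SD of each group in black. Prpf6 lies at 14.8 to 14.9 in C3H and 18.2 to 18.6 in Pde6b rd1, Cwc27 is the most scattered, and for most genes the groups overlap.

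The levels of the members varied little over the groups. Prpf8 had a coefficient of variation of 2.36% over the 12 samples in CPM scaled by the TMM method, below that of all but 0.0357% of 19616 tested genes. Cwc27, at 13.3%, was the most variable member, and the median over all genes was 17.6%. The highest group mean exceeded the lowest by a factor of 1.03 for Prpf8, 1.16 for Prpf6 and 1.31 for Cwc27, and the median factor over all genes was 1.42. All 9 members lay below both medians. More abundant genes have less counting error, and the members' levels ranged from the 51.5 to the 98.6 percentile of mean FPKM.

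**Figure D2:**
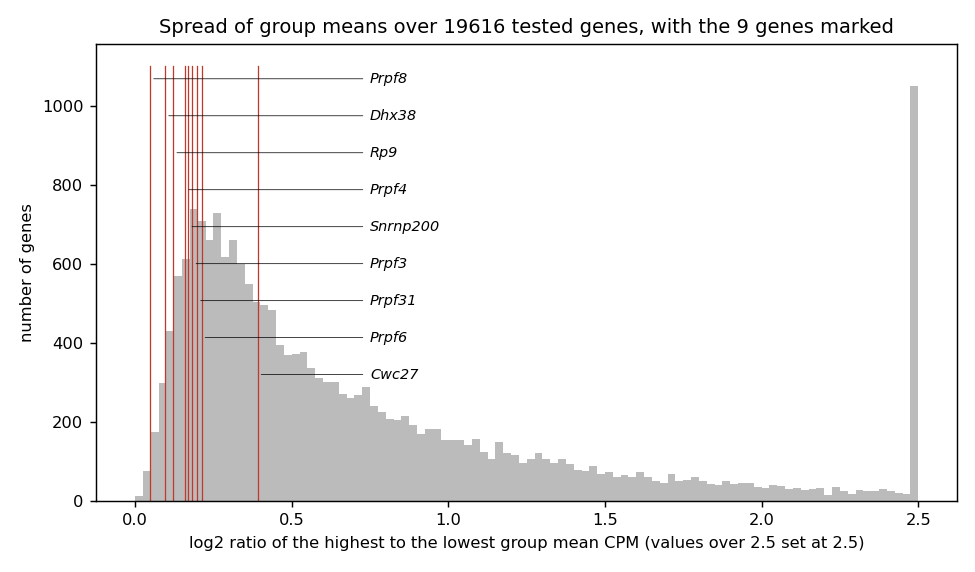
Histogram of the log2 ratio of the highest to the lowest group mean of TMM-scaled CPM over 19616 tested genes (horizontal axis, values over 2.5 set at 2.5) against the number of genes, with the 9 members as red lines. All members lie in the left of the distribution, with Prpf8 furthest left at a ratio of 1.03 and Cwc27 furthest right at 1.31.

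In Pde6b rd1, Prpf6 and Cwc27 rose against C3H and Snrnp200 fell, while 6 of the 9 members did not pass the test. A gene passed at an adjusted p under 0.05 in edgeR's quasi-likelihood test, adjusted over all tested genes, and was called at an unadjusted p under 0.05 with a change of at least 1.5-fold. This was 3 of 9 members passed, against 43.2% of all 18310 tested genes, and 0 of 9 called, against 15.0% of all genes. No test compared these shares. The members' 95% intervals all lay inside the 1.5-fold limits, against 62.8% of all genes.

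Prpf6 had 59.2, 59.4 and 59.6 TMM-scaled CPM in C3H and 69.1, 67.7 and 69.7 in Pde6b rd1. All Pde6b rd1 samples lay above all C3H samples, which were nearly equal to each other in spite of their different days. The log2 fold change was 0.24 (SE 0.04, 95% interval 0.15 to 0.33, adjusted p = 7.45e-05), a rise of 17.9%. It passed in all 17 alternative settings, at 0.21 to 0.31.

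Cwc27 had 12.7, 10.3 and 11.9 CPM in C3H, in the order of days 13, 23 and 29, and 14.7, 13.3 and 15.9 CPM in Pde6b rd1. The groups did not overlap, though the C3H sample of day 13, the age of the Pde6b rd1 mice, was the highest of the C3H samples. The exons of Cwc27 share 152 bases, 5.29% of its exonic length, with Srek1ip1 on the opposite strand, which had 321 to 606 counts over all samples. Whether reads of that gene were counted for Cwc27 was not tested. The log2 fold change of Cwc27 was 0.36 (SE 0.10, interval 0.17 to 0.56, adjusted p = 0.00328), a rise of 28.6% on counts of 226 to 333. Against the C3H sample of the same day alone it was 0.22 and did not pass (adjusted p = 0.238).

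Snrnp200 had 295, 311 and 306 CPM in C3H and 271, 280 and 286 in Pde6b rd1, again without overlap. Its log2 fold change was -0.10 (SE 0.03, adjusted p = 0.0146). With library totals in place of TMM factors the change was -0.03 (adjusted p = 0.539), and the test was also missed without C3H replicate 2 (-0.09, adjusted p = 0.0683) and without rd1 replicate 1 (-0.08, adjusted p = 0.128). Limma on log2(FPKM + 1) and on log2(FPKM + 0.1) gave -0.02 and did not pass it (adjusted p = 0.545 and 0.55). Against the C3H sample of the same day alone the change was -0.07.

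The other members gave values and no passed test in the main fit of Pde6b rd1. Prpf31, at 32.9 to 34.2 CPM against 34.9 to 38.1 in C3H, was closest (log2 fold change -0.13, adjusted p = 0.0725). It passed in 2 of 17 alternative settings, with a Q30 class as covariate (-0.17, adjusted p = 0.0261) and without C3H replicate 3 (-0.17, adjusted p = 0.0224). Its exons share 984 bases, 18.1% of its exonic length, with the antisense gene Gm15927, which had 33 to 70 counts, and the strand setting of the counting is not given in the sources used here. Prpf4, Prpf3, Dhx38 and Rp9 had log2 fold changes between -0.08 and -0.02 in Pde6b rd1. Prpf8, at 564 to 587 CPM against 586 to 601, differed by -0.02 with an interval of -0.08 to 0.04.

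**Figure D3:**
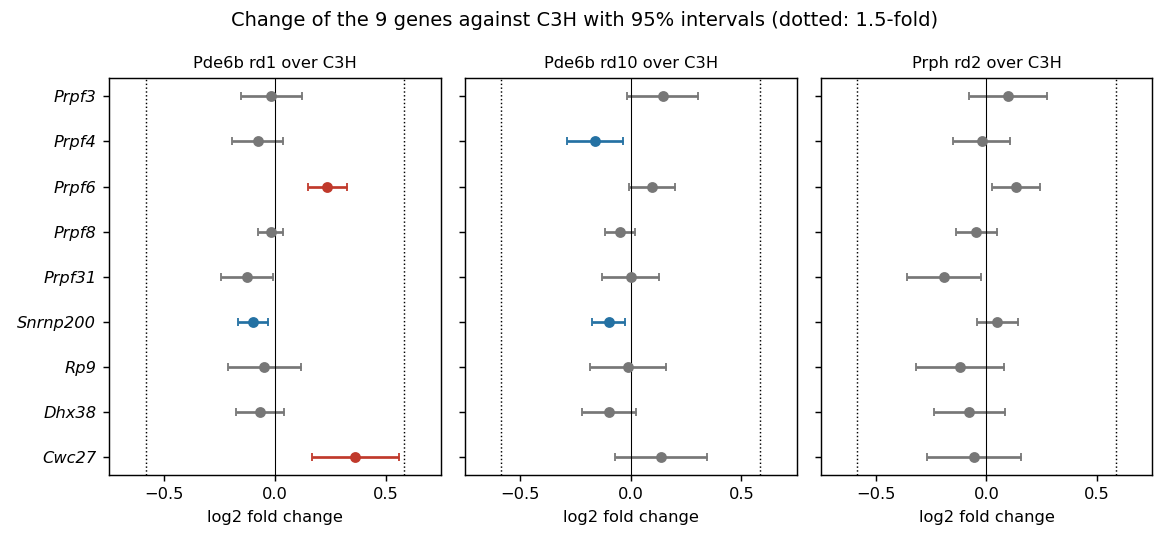
Log2 fold change of the 9 genes (points) with 95% intervals (bars) in each model over C3H. Red and blue points passed the adjusted test as higher and lower, grey points did not, and the dotted lines mark 1.5-fold. All 27 intervals lie inside the dotted lines, and no gene passed in Prph rd2.

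In Pde6b rd10, Prpf4 and Snrnp200 fell slightly and no member rose past the test, a split that depended on the scaling. This was 2 of 9 members, against 54.1% of 18704 tested genes, and 0 of 9 were called, against 23.9%. Prpf4, a WD-repeat protein of the U4/U6 particle, had 34.4, 32.9 and 34.4 CPM in C3H and 30.7, 30.8 and 29.5 in Pde6b rd10. The groups stood apart and the log2 fold change was -0.16 (SE 0.06, adjusted p = 0.0299). Snrnp200, at 286, 285 and 281 CPM in Pde6b rd10, lay below all C3H samples, with a log2 fold change of -0.10 (SE 0.04, adjusted p = 0.0248). All 9 intervals lay inside the 1.5-fold limits, against 55.8% of all genes. Each of these falls passed in 7 of 17 alternative settings. With library totals they were -0.11 and -0.04 and did not pass (adjusted p = 0.149 and 0.322), and 2 members passed as higher in their place, Prpf3 (0.20, adjusted p = 0.0357) and Prpf6 (0.15, adjusted p = 0.013). Limma on log2(FPKM + 1) and on log2(FPKM + 0.1) passed Prpf6 as higher (adjusted p = 0.0104 and 0.0105) and 0 members as lower, so that the direction of the members that passed turned with the scaling. Prpf4 did not pass without C3H replicate 1 or 3 or rd10 replicate 1 or 3 (-0.17 to -0.14, adjusted p = 0.0717 to 0.0925), nor Snrnp200 without C3H replicate 2 or 3 or rd10 replicate 1 or 3 (-0.10 to -0.08, adjusted p = 0.0569 to 0.132). Prpf3, at 3.90 to 4.74 FPKM against 3.60 to 4.03 in C3H, had a log2 fold change of 0.14 (adjusted p = 0.122). With 1 sample left out it was 0.09 to 0.21, lowest without rd10 replicate 3, and it passed without rd10 replicate 2 (adjusted p = 0.0157). Against the C3H sample of the same day alone it was 0.06. Cwc27, at 11.5 to 13.7 CPM, had a log2 fold change of 0.14 (adjusted p = 0.26), which was 0.05 without C3H replicate 2, 0.07 without rd10 replicate 1, 0.20 without C3H replicate 1 or rd10 replicate 2 and 0.30 against the C3H sample of the same day, none of them past the test. Prpf6, at 61.7 to 65.7 CPM, lay above all C3H samples without passing (log2 fold change 0.10, adjusted p = 0.105). Prpf31 showed a log2 fold change of 0.00 with an interval of -0.13 to 0.13.

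In Prph rd2, 0 of 9 members passed the adjusted test in edgeR, against 9.70% of 18581 tested genes (4.53% higher and 5.17% lower), and 0 were called, against 4.57%. All 9 intervals lay inside the 1.5-fold limits, against 67.9% of all genes. DESeq2 passed 0 as well. At an unadjusted p under 0.05 there were 2 of 9 members, Prpf6 and Prpf31, against 23.8% of all genes. Prpf6 had 63.6, 65.7 and 66.0 CPM, above all C3H samples, with a log2 fold change of 0.13 (SE 0.05, adjusted p = 0.12). Prpf31 had 34.3, 34.4 and 28.4 CPM, below the 34.9 of the lowest C3H sample, with a log2 fold change of -0.19 (SE 0.08, adjusted p = 0.149). The lowest value was that of rd2 replicate 3, and without it the change was -0.11. Limma on log2(FPKM + 1) and on log2(FPKM + 0.1) passed 1 member in Prph rd2, Prpf6 (adjusted p = 0.0468 and 0.0477).

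The models were also compared with each other, by contrasts in a fit of all 12 samples. Prpf6 was lower in Pde6b rd10 than in Pde6b rd1 (log2 fold change -0.11, SE 0.05, adjusted p = 0.0358), the 1 member of 9 to pass, against 57.2% of 19616 genes. It did not pass without rd1 replicate 1 or 3 or rd10 replicate 1 or 3 (-0.11 to -0.09, adjusted p = 0.0741 to 0.155). Between Prph rd2 and Pde6b rd1, where 39.8% of genes passed, Snrnp200 was higher in Prph rd2 (0.17, SE 0.04, adjusted p = 0.00111) and Cwc27 lower (-0.39, SE 0.10, adjusted p = 0.00284). Snrnp200 had 313, 321 and 309 CPM in Prph rd2, above every Pde6b rd1 and Pde6b rd10 sample, and Cwc27 had 10.8, 11.6 and 10.9. Both differences passed in all 16 alternative settings. The interval of the Cwc27 difference, -0.60 to -0.19, was the 1 of 54 that reached past the 1.5-fold limits. The other 8 intervals of that contrast lay inside, against 55.3% of all genes, as did all 9 for Pde6b rd10 over Pde6b rd1, against 47.3%, and all 9 for Prph rd2 over Pde6b rd10, against 55.4%. In these contrasts 0 of 9 members were called, against 28.8% of all genes for Pde6b rd10 over Pde6b rd1, 16.9% for Prph rd2 over Pde6b rd1 and 19.7% for Prph rd2 over Pde6b rd10. Between Prph rd2 and Pde6b rd10, where 43.9% of genes passed, Snrnp200 (0.15, adjusted p = 0.0033) and Prpf4 (0.14, adjusted p = 0.0466) were higher in Prph rd2 and Prpf31 (-0.20, adjusted p = 0.03) was lower. Prpf31 did not pass without rd2 replicate 3 (-0.11, adjusted p = 0.189), rd10 replicate 2 (-0.15, adjusted p = 0.119) or rd10 replicate 3 (-0.20, adjusted p = 0.056), and Prpf4 passed in 3 of 16 alternative settings, of which leaving out rd2 replicate 2 was the 1 with a sample left out. Without each other sample of these models Prpf4 was at 0.12 to 0.15 (adjusted p = 0.0613 to 0.138).

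Ordered by group mean, Prpf6 ran from Pde6b rd1 through Prph rd2 and Pde6b rd10 to C3H, with no neighbours told apart. Its adjusted p between neighbours was 0.167, 0.564 and 0.083. This is also the order of Xist over the groups, and the reverse of the order of the summed rod markers. The part of either in the Prpf6 values was not tested. Cwc27 ran from Pde6b rd1 through Pde6b rd10 and C3H to Prph rd2, and Snrnp200 from Prph rd2 through C3H and Pde6b rd10 to Pde6b rd1. Of all neighbours of the 9 genes, only C3H and Pde6b rd10 for Snrnp200 were told apart (adjusted p = 0.0356).

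Ratios between members do not depend on the scaling of the libraries. Prpf8 was chosen as the base after its values were seen, as the member that varied least. For each 100 reads of Prpf8, Prpf6 had 9.92 to 10.1 reads in C3H, with means of 11.1 ± 0.28 in Pde6b rd10, 11.4 ± 0.555 in Prph rd2 and 11.96 ± 0.08 in Pde6b rd1 (SD, n = 3), and a lowest model value of 10.8, so that every model sample lay above every C3H sample. Cwc27 had 1.74 to 2.16 reads in C3H and 2.35 to 2.70 in Pde6b rd1, with no overlap. Its 1.98 to 2.41 reads in Pde6b rd10 overlapped both, and its 1.85 to 2.12 in Prph rd2 lay within the C3H range. Snrnp200 had 50.4 to 52.5 reads in C3H, 48.9 to 50.1 in Pde6b rd10, 52.7 to 58.4 in Prph rd2 and 47.2 to 49.6 in Pde6b rd1. On this base the Snrnp200 values of both Pde6b models lay below C3H and those of Prph rd2 above it. In TMM-scaled CPM, Snrnp200 in Prph rd2 overlapped C3H (log2 fold change 0.05, adjusted p = 0.554 in edgeR's test). The base itself, Prpf8 in CPM, lay below all C3H samples in Prph rd2 and Pde6b rd10 (-0.05 in each, adjusted p = 0.58 and 0.233).

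**Figure D4:**
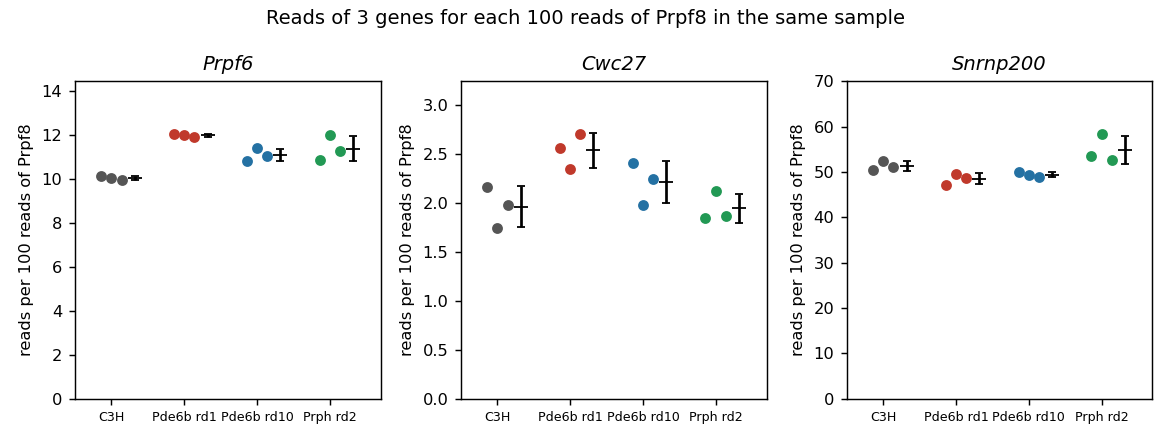
Reads of Prpf6, Cwc27 and Snrnp200 for each 100 reads of Prpf8 in the same sample (vertical axes, from 0) by group, with mean and SD in black. Prpf6 has 9.92 to 10.1 reads in C3H, below all 9 samples of the models, and Snrnp200 has its highest values, 52.7 to 58.4, in Prph rd2.

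The members did not move as 1 group over the 12 samples. Pearson's r of their log2 CPM ranged from -0.75, for Snrnp200 and Cwc27, to 0.67, for Prpf4 and Snrnp200, over 36 pairs, as a description over samples that share library and group. Among 19615 other genes, the pattern of Prpf6 was most like that of Usp40 (r = 0.95) and the X-linked Eif2s3x (r = 0.95), that of Snrnp200 most like Mettl3 (0.96) and Ciapin1 (0.95), and that of Cwc27 most like Gspt1 (0.91) and Gm38125 (0.90). Prpf4 went most with Tmem138 (0.96) and Cpne9 (0.95), Prpf8 with Snapin (0.92), Dhx38 with Ndufb9 (0.95) and Rpl8 (0.93), Prpf3 with 1810059C17Rik (0.89) and Fam117a (0.88), and Rp9 with Adra1b (0.87) and Gm18774 (0.87).

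Of 73 other spliceosome genes in 5 lists, 13 were higher and 7 lower past the test in Pde6b rd1, where 21.9% of all genes were higher and 21.3% lower. This split moved to 25 and 3 with library totals and 23 and 3 with limma, and to 3 and 2 against the C3H sample of the same day alone. In Pde6b rd10, 3 were higher and 30 lower, against 27.7% and 26.3% of all genes, with 4 and 20 under library totals and 1 and 13 against the C3H sample of the same day. In Prph rd2, 1 was higher and 2 were lower. In the Pde6b rd10 comparison, the median log2 fold change of the 73 genes was -0.10, against 0.00 over all genes. The median was -0.15 for the 18 genes of U1 and U2, of which 10 were lower, and -0.15 for the 14 of the Prp19 complex, a ubiquitin ligase that joins at activation, of which 8 were lower. It was -0.16 for the 8 Sm core genes and -0.06 for the 19 other genes of U5 and the tri-snRNP, of which 2 and 6 were lower, and -0.08 for the 14 factors of the catalytic steps, of which 4 were lower, against -0.01 for the 9 members.

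No gene of the 5 lists was called against C3H at 1.5-fold in the main fits. In Pde6b rd10, 1 gene was called lower in several alternatives, among them those without the low count filter, without C3H replicate 1 or 3 and without rd10 replicate 2. The genes with large changes in Pde6b rd10 were picked after their values were seen. Txnl4a, a small U5 protein, had a log2 fold change of -0.58 (adjusted p = 7.66e-05) and Snrpb, an Sm ring protein, -0.54 (adjusted p = 2.21e-09). Prpf19, which names the Prp19 complex, fell by 0.40 (adjusted p = 5.4e-08), while Snrnp70, the U1 70K protein, rose by 0.33 (adjusted p = 8.76e-07). Snrpb was the 1 gene of these lists called between models, higher in Prph rd2 than in Pde6b rd10 by 0.61 on the log2 scale (adjusted p = 2.85e-09).

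**Figure D5:**
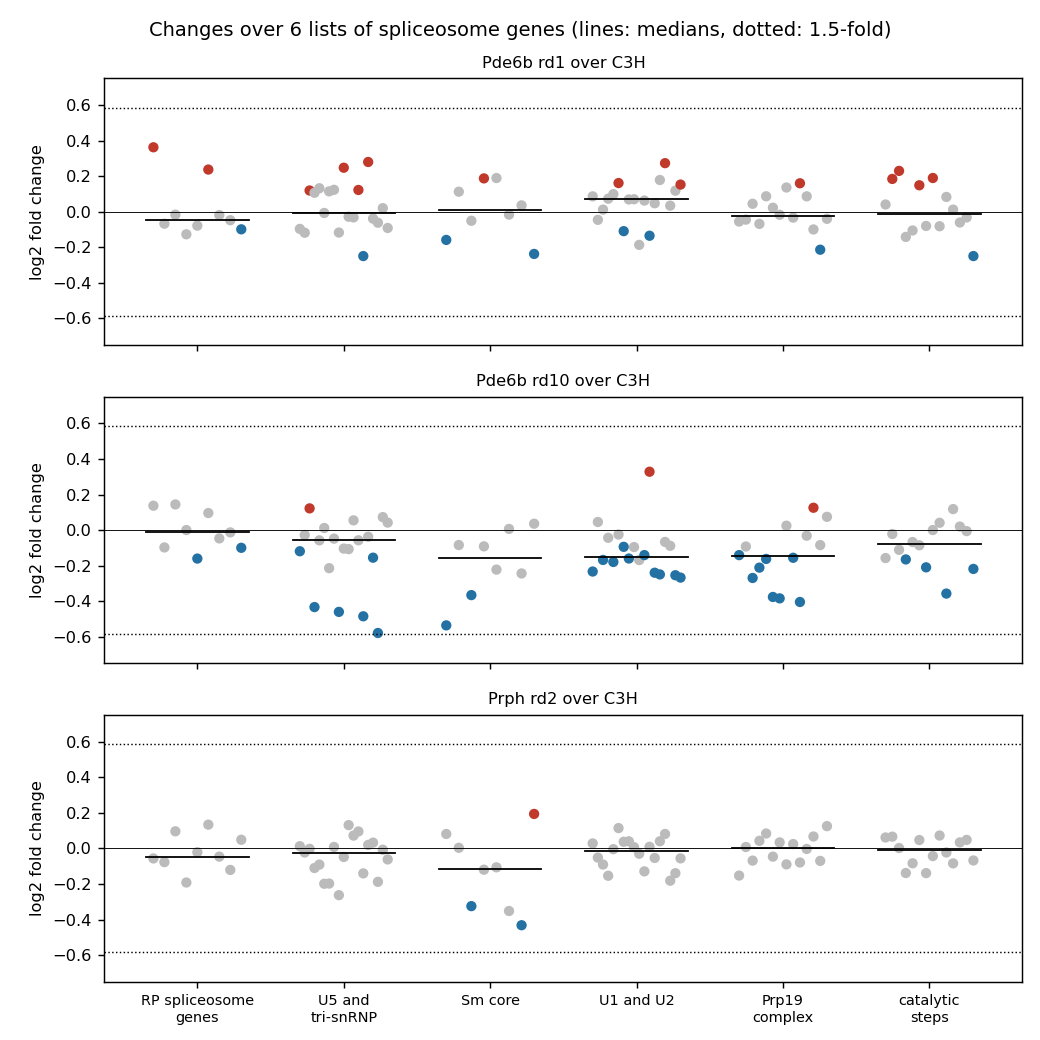
Log2 fold change (vertical axes) of each gene in the 9 RP spliceosome genes and 5 other lists (horizontal axis) in each model over C3H, red and blue where the adjusted test passed, with list medians as lines and 1.5-fold dotted. In Pde6b rd10, 30 of the 73 other genes are blue and 3 red.

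Circular RNAs, counted as reads across back-splice junctions, were listed for 6 of the 9 genes, 8 circles with 82 of 214352 junction reads in all, or 0.0383%, against 0.11% of reads on genes. The circle of Snrnp200 shown above took 56 of the 82, in 11 of 12 samples. It had 3, 5 and 4 junction reads in C3H, 4, 0 and 6 in Pde6b rd10, 4, 5 and 4 in Prph rd2 and 10, 3 and 8 in Pde6b rd1. The groups overlap at these counts, and no test was made. Each other circle of a member had 2 to 7 reads. The circle assigned to Rp9 lies on the opposite strand, and both of its edges are at exons of 9530077C05Rik, which shares 237 exonic bases with Rp9.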

How the data were processed

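Retinal RNA of 12 samples was depleted of ribosomal RNA and made into directional libraries. The authors aligned reads to GRCm38 with HISAT2 and deposited gene counts made with HTSeq 0.11.2, without normalization. The deposited FPKM values divide these counts by gene length and reads on genes. The authors found circRNA junctions with TopHat2 2.1.1 and CIRCexplorer, and their deposited circRNA TPM values were not used in a test. Groups came from the labels. Positions came from GENCODE vM21.

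The main test was the quasi-likelihood test of edgeR 4.0.16 (limma 3.58.1, R 4.3.3) on the counts after filterByExpr and TMM scaling, with 1 model against C3H at a time, and Benjamini-Hochberg adjustment over all genes. Contrasts between models used all 12 samples. Intervals are Wald intervals scaled by the quasi-dispersion and not narrower than Poisson counts allow. Within groups, samples differed by more than sampling noise (chi-square per degree of freedom 1.72 to 10.9). Scripts were tested on simulated data. Alternatives were DESeq2 1.42.0, limma on log2 FPKM with 1 or 0.1 added, other scalings and filters, a Q30 class as covariate, the C3H sample of the same day, a replicate block and each sample left out. Figures used Python 3.11.15, pandas 2.3.3, numpy 2.4.6 and matplotlib 3.10.9.

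The members and lists were chosen with earlier results of these data known. The genes named are the 9 members, genes of the other lists called at 1.5-fold with an adjusted p under 0.05, at most 4 per list, and the 2 genes most like each member, of which some are not reported here. Further genes are marked as picked after their values were seen.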

Additional observations from a re-analysis of the deposited data

Results flagged for a closer look

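For 5 of the 9 members, a direct test between models passed in at least 1 of 3 contrasts. It was 1 of 9 for Pde6b rd10 over Pde6b rd1, against 57.2% of all genes. For Prph rd2 over Pde6b rd1 it was 2 of 9, against 39.8%, and for Prph rd2 over Pde6b rd10 3 of 9, against 43.9%. The share of all genes passing in any of the 3 contrasts was not counted. The contrasts do not involve the C3H levels, though the C3H samples enter the shared estimate of the spread. In fits of only the samples of both models, Prpf4 and Prpf31 did not pass between Prph rd2 and Pde6b rd10 (adjusted p = 0.102 and 0.0764). Prpf6 differed between Pde6b rd10 and Pde6b rd1, by -0.11 on the log2 scale. Cwc27 differed between Prph rd2 and Pde6b rd1, by -0.39, and Snrnp200 by 0.17. Between Prph rd2 and Pde6b rd10, Snrnp200 differed by 0.15, Prpf4 by 0.14 and Prpf31 by -0.20. The contrasts of Prph rd2 with the other models were added after seeing the data. Groups of 3 samples are too small for the search for single outlying samples.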

How the results depend on the processing

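Of 891 values of single members under the alternatives, 820 stayed on their side of the adjusted threshold, 49 lost a passed test, 22 gained one and 0 changed sign where either value passed. Of the 820, 67 changed sign with neither value passed. No alternative value reached 1.5-fold, and the number of members called stayed at 0 in every comparison and alternative.

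The number of members passing in Pde6b rd1 was 3, and 1 against the C3H sample of the same day. With single samples left out it was 2 to 4. In Pde6b rd10 it was 2, and 1 with DESeq2, with at least 10 counts in every sample and with limma at either pseudocount (Prpf6 higher, in place of a fall), 0 with the replicate block and 0 against the C3H sample of the same day, with 0 to 3 where 1 sample was left out. With library totals it stayed at 2, but these were Prpf3 and Prpf6 as higher and not Prpf4 and Snrnp200 as lower. In Prph rd2 it was 0, and 1 with limma at either pseudocount. For Pde6b rd10 over Pde6b rd1 it was 1, and 2 with library totals, with at least 10 counts, with limma at either pseudocount and with the replicate block, 0 without the low count filter, 3 in a fit of only the samples of both models, and 0 to 2 where 1 sample was left out. For Prph rd2 over Pde6b rd10 it was 3, 1 in a fit of only the samples of both models, and 1 to 3 where 1 sample was left out. For Prph rd2 over Pde6b rd1 it stayed at 2 or 3. The causes were not tested.

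Replicate numbers are shared by all groups, but deviations of same-numbered samples correlated at only -0.11 to 0.30 over the comparisons, and 11 of 18 correlated best with their own number, a hint from the data and not the design. The samples share only a number, and the block was not in the main design. With library totals the split of passed genes moved from 4015 higher and 3891 lower to 5542 and 2741 in Pde6b rd1, from 5188 and 4927 to 5975 and 3968 in Pde6b rd10, from 842 and 960 to 1243 and 780 in Prph rd2, and from 4173 and 3634 to 3257 and 4827 for Prph rd2 over Pde6b rd1. Passed genes in Prph rd2 numbered 1802, but 1193 and 1181 with limma, 306 against the C3H sample of the same day and 863 to 2907 with 1 sample left out. In Pde6b rd1 they numbered 7906, but 4893 with the same-day C3H sample. Genes called at 1.5-fold fell with limma on log2(FPKM + 1), from 2749 to 1097 in Pde6b rd1, from 4479 to 2035 in Pde6b rd10, from 850 to 166 in Prph rd2, from 5644 to 2929 for Pde6b rd10 over Pde6b rd1, from 3308 to 1115 for Prph rd2 over Pde6b rd1 and from 3862 to 1791 for Prph rd2 over Pde6b rd10. In Prph rd2 they were 1300 without the filter and 1435 without rd2 replicate 2, and 2420 for Prph rd2 over Pde6b rd10 with at least 10 counts in every sample.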
